A study of Mus musculus with 12 samples.

Results

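Of 3294 c-Fos peaks called in CA1 excitatory neuron nuclei after kainic acid, 838 (25.4%, exact 95% interval 24.0 to 27.0) lay between protein-coding genes at an intermediate distance. The midpoint of each of these intergenic peaks was outside every protein-coding gene of the mm10 RefSeq table, more than 1 kb and up to 100 kb from the nearest end of one. Of the other peaks, 220 had their midpoint within 1 kb of the end of a protein-coding gene, 101 of them outside every such gene. Another 1599 had it inside a protein-coding gene and more than 1 kb from any end. The last 637 had it outside and more than 100 kb from any. All mice were C57BL/6, carried CaMK2a-Cre/+ and LSL-Sun1-GFP/+ and were 3-4 weeks old. CaMK2a-Cre switches on Sun1-GFP, a nuclear envelope tag, in excitatory neurons, and CA1 nuclei were sorted on that tag. The animals were given kainic acid (KA), which activates glutamate receptors and provokes seizures, or the vehicle PBS for 2-3 hours, and each treatment was profiled with an in-house polyclonal c-Fos antibody or with rabbit IgG as the negative control, in 3 replicates per group (12 samples in all). CUT&RUN, in which a nuclease tethered by the antibody releases bound DNA for sequencing, was run on 50000 nuclei per reaction, and the values used here were the positions in 1 list of replicated c-Fos against IgG peaks after KA. The PBS groups were not analysed here, so whether a peak depended on KA was not tested. The list gives no value per library, so depth and the spread between replicates are unknown, and the intervals below cover only counting error over peaks or genes.

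c-Fos is a subunit of AP-1, a transcription factor made of a Fos family protein paired with a Jun family protein, and neurons make it rapidly after strong firing. AP-1 recognises the letters TGANTCA, where N is any base and TGACTCA and TGAGTCA are the preferred forms. Much of its binding in the genome is known to lie at enhancers, regulatory elements away from promoters that raise transcription of genes on either side, and many long non-coding RNA (lncRNA) genes start at or close to such elements.

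The sequences that could be read were those of transcript start windows, each running from 250 bases before to 50 after a start in RefSeq (GRCm38.p6, the assembly of mm10). Windows of 28 lncRNA genes lay wholly inside an intergenic peak, and TGANTCA occurred in 9 of them (32.1%, exact 95% interval 15.9 to 52.4). Over all 9520 lncRNA windows the share was 9.50% (904), and over all 26794 windows of lncRNA and protein-coding genes it was 7.98% (2138). Printed first are 5 windows with a match, shown because they hold several matches, hold one next to the start, or come from a peak by a stress-induced or synaptic gene. The last, from a peak upstream of Egr2, is shown because it held none. Each is written 5′ to 3′ on the strand of the lncRNA, with every TGANTCA match in capitals, and since this motif is its own reverse complement 1 search covered both strands.
D730003I15Rik: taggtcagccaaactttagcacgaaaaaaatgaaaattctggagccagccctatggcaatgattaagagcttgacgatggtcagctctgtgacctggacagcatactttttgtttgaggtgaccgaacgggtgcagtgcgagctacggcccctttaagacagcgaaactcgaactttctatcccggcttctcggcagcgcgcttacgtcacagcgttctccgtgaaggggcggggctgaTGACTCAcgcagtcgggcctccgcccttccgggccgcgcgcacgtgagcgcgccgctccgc
Gm30663: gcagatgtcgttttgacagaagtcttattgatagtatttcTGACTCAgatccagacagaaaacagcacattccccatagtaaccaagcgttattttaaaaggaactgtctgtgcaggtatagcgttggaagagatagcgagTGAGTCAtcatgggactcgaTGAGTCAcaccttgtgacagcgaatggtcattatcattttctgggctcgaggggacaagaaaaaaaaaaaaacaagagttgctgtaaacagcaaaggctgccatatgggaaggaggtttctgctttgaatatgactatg
Gm12415: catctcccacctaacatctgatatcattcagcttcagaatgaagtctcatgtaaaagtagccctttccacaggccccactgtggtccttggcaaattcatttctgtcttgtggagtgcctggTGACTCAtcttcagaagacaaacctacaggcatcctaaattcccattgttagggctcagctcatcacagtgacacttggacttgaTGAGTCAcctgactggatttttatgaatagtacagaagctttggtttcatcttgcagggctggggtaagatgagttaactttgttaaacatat
Gm42400: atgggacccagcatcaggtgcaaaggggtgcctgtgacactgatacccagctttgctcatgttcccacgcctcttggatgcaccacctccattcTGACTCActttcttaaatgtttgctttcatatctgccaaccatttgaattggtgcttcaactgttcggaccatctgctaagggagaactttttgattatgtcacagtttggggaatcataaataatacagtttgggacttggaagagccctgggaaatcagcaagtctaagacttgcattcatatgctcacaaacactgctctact
B930059L03Rik: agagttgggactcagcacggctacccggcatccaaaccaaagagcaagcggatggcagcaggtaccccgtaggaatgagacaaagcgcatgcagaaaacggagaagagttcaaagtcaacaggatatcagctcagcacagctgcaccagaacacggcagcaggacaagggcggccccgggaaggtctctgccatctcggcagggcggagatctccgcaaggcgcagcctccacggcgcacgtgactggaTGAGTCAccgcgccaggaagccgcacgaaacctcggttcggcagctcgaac
Gm51825: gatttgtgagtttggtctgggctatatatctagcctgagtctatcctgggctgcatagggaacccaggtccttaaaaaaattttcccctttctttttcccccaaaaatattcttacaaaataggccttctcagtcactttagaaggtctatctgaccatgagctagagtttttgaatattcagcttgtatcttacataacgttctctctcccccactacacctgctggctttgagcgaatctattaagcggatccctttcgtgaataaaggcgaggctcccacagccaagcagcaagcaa

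The printed window of D730003I15Rik (chr1:191224204-191224503, plus strand) sits in an intergenic peak of 2371 bp that lies 40.8 kb upstream of Atf3, a stress-induced bZIP transcription factor that can pair with Jun. Its TGACTCA was centred 8 bases before the start. Gm30663 (chr15:7037617-7037916, plus strand), 52.8 kb from Lifr, the receptor of leukaemia inhibitory factor, had 3 matches, centred 207, 106 and 86 bases before its start. Gm12415 (chr4:84741225-84741524, plus strand), by the zinc finger gene Bnc2, had 2 matches, at 125 and 40 bases before the start. The Gm42400 window (chr7:81731211-81731510, plus strand) had 1 match at 153 bases before the start, in a peak of 950 bp that lay 24.4 kb upstream of Homer2, a postsynaptic scaffold gene. In B930059L03Rik (chr12:110591124-110591423, plus strand), by the phosphatase subunit gene Ppp2r5c, the match was centred 3 bases after the start. Gm51825 (chr10:67482534-67482833, minus strand), in a peak 51.3 kb upstream of Egr2, had no match in its window, which covers 300 of the 1971 bp of that peak.

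The other windows with a match belonged to Gm9875, Gm41113, Gm35218 and Gm32011, and Gm32011 had the form TGATTCA. With TGACTCA or TGAGTCA alone, 8 of the 28 windows (28.6%) had a match, against 6.24% of all lncRNA windows. TGACGTCA, the cyclic AMP response element, was in 0 of the 28 and in 1.02% of all lncRNA windows. The median G+C content was 48.8% in the 28 windows and 48.7% in all lncRNA windows. For comparison, windows inside other peaks had TGANTCA in 5 of 11 (peaks inside protein-coding genes), 2 of 21 (peaks within 1 kb of a gene end) and 1 of 7 (peaks over 100 kb away). Zmiz1os1 and Gm41113 start in the same peak, so the 28 windows come from 27 peaks. A match is a run of letters and not a measured binding site, these windows were chosen after the data were seen, and wider peaks hold a whole window more easily.

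The density of intergenic peaks stayed between 0.816 and 1.16 per Mb at all distances from protein-coding genes. The rule covers 792.3 Mb of the genome, and 836 of the 838 peaks lay in stretches between neighbouring genes that could be measured, which gave 1.06 peaks per Mb (exact Poisson 95% interval 0.985 to 1.13). This lay below the 1.62 per Mb inside protein-coding genes and the 2.82 per Mb within 1 kb of gene ends, and above the 0.897 per Mb (interval 0.829 to 0.970) farther than 100 kb. Between 1 and 5 kb from a gene there were 1.09 per Mb (122 peaks, interval 0.906 to 1.30), and between 5 and 10 kb there were 0.816 (84 peaks, 0.651 to 1.01). From 10 to 25 kb the density was 1.04, from 25 to 50 kb it was 1.06, and from 50 to 100 kb it was 1.16 (235 peaks, 1.02 to 1.32). Apart from the bins of 5 to 10 and 50 to 100 kb, whose intervals just miss each other, the intervals of all pairs of the 5 bins overlap. The median distance was 25.6 kb, with quartiles of 10.2 and 55.0 kb.

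The split between transcript starts and transcript ends was close to that of the covered sequence. Of the 655 intergenic peaks whose nearest gene has a known strand, 341 (52.1%, exact 95% interval 48.2 to 56.0) were nearer to the transcript start, and 53.9% of the covered sequence is. The densities were 1.01 per Mb on the start side and 1.09 per Mb on the end side. Stretches between a divergent pair of genes, which has transcript starts at both ends, held 1.15 peaks per Mb (162 peaks, exact Poisson 95% interval 0.976 to 1.34). Tandem stretches held 0.955 (279 peaks, 0.846 to 1.07) and convergent ones 0.961 (94 peaks, 0.777 to 1.18). Stretches where the strand of a flanking gene is unknown held 1.15 (301 peaks, 1.03 to 1.29), as many per Mb as the divergent ones. By length, stretches of 20 to 50 kb held 0.751 per Mb of covered sequence (91 peaks, 0.604 to 0.921) and those of 200 to 500 kb held 1.26 (219 peaks, 1.096 to 1.44), and these intervals do not overlap.

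**Figure D1:**
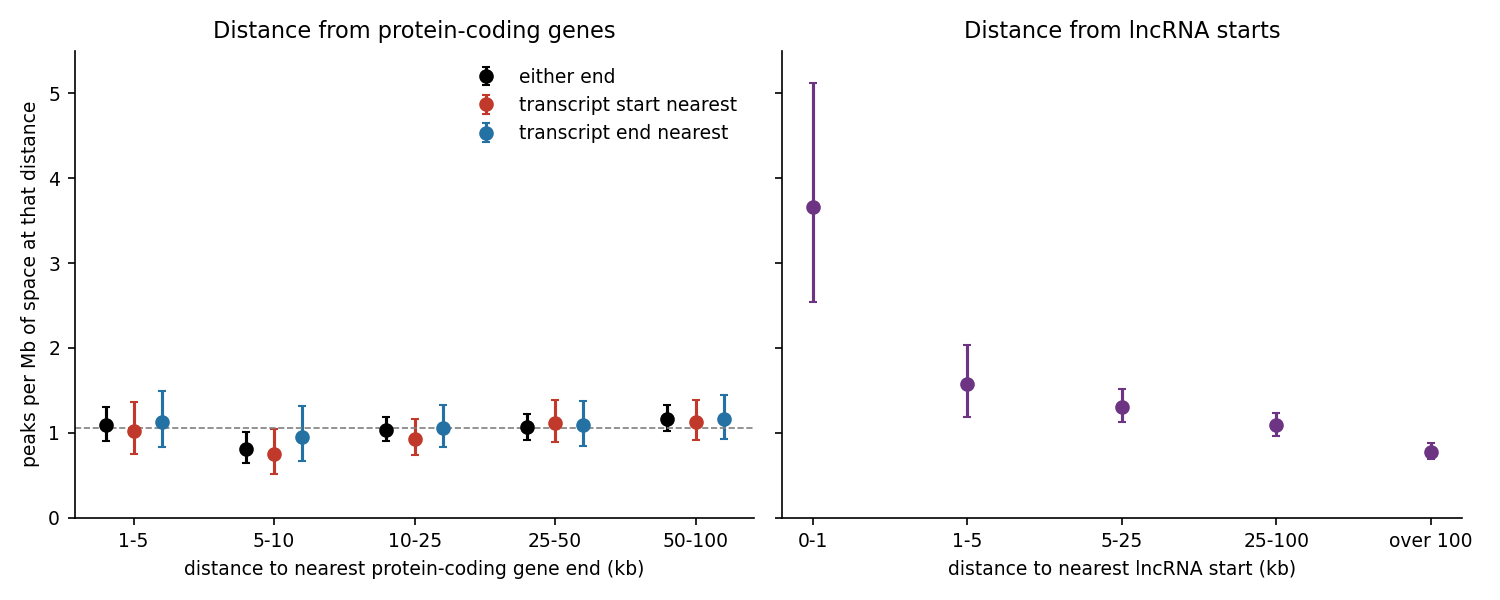
Intergenic c-Fos peaks per Mb of covered sequence (y axis) by distance in kb from the nearest protein-coding gene end (left, for either end, transcript start or transcript end) and from the nearest lncRNA start (right), as points with exact Poisson 95% intervals. The dashed line on the left is the density over all distances, 1.06 per Mb. On the left the points run from 0.747 to 1.17 per Mb, and on the right they go from 3.66 per Mb within 1 kb to 0.780 per Mb beyond 100 kb.

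Against lncRNA genes, which the choice of peaks did not use, the density did vary with distance. On the 19 chromosomes with start positions, 34 of 802 intergenic peaks lay within 1 kb of the start of an lncRNA gene, or 3.66 per Mb (interval 2.54 to 5.12). It was 1.57 per Mb from 1 to 5 kb (58 peaks, 1.19 to 2.03), 1.31 from 5 to 25 kb, 1.095 from 25 to 100 kb and 0.780 (269 peaks, 0.689 to 0.879) beyond 100 kb. The intervals of the nearest and the farthest bin do not overlap. The chromosome without start positions was chromosome 18, so the X chromosome is among those counted. Any lncRNA gene without a known start was left out, so a peak near such a gene falls in a farther bin. This measure was also added after the data were seen.

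Inside the bodies of lncRNA genes lay 149 intergenic peaks (17.8%, exact 95% interval 15.3 to 20.5), while such genes take up 12.6% of the covered sequence. Counting every non-coding gene, 156 peaks (18.6%, interval 16.0 to 21.4) lay inside one, against 15.4% of the sequence. These peaks were spread over 151 non-coding genes, and 9 genes held more than 1. 9330175M20Rik on chromosome 1 held 3, between Tmeff2, a transmembrane protein gene, and Cavin2, a gene of caveolae. Another peak of 2002 bp covered the start of 9330175M20Rik on the far side of Cavin2. Gm10754 on chromosome 10 held 3, while 9830132P13Rik, Gm13986, Gm29571, Gm31419, Gm3740, Gm38748 and Gm46758 held 2 each. No intergenic peak overlapped a RefSeq miRNA hairpin, but hairpins are short and the sequence they take up was not measured, so this absence has no comparison. Several of the 28 lncRNA genes whose start window lay inside a peak stand next to developmental regulators. Hottip and Crnde had their peaks 1.55 kb from Hoxa13 and 2.37 kb from Irx5. D130079A08Rik, 8430419K02Rik and Gm20467 had theirs 2.80 kb from Pou4f1, 4.83 kb from Meis1 and 2.12 kb from Nkx2-3. How often lncRNA starts at large lie by such genes was not measured.

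Genes induced by neuronal activity had an intergenic peak more often than protein-coding genes at large. Of 70 such genes, 22 (31.4%, exact 95% interval 20.9 to 43.6) had at least 1 within 100 kb of an end, while 1692 of all 21523 protein-coding genes (7.86%) did. Their surroundings held 34 intergenic peaks in 8.97 Mb of covered sequence, or 3.79 per Mb (exact Poisson 95% interval 2.63 to 5.30). The lists were drawn up with earlier results of these peaks known, and a gene with more open space around it can hold more peaks, so the density is the closer comparison with the 1.06 per Mb over the genome. By genes of known strand, 16 of the 34 peaks lay upstream of the gene and 9 downstream. By genes without one, 4 lay on the side of lower coordinates and 5 on that of higher ones. The share of covered sequence upstream of these genes was not measured.

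Among the transcription factor genes, 7 of 27 had an intergenic peak (25.9%, interval 11.1 to 46.3), at 3.66 peaks per Mb. Fos, which encodes c-Fos itself, had an intergenic peak of 1753 bp 18.4 kb upstream (chromosome 12, 85454612 to 85456364) and one of 2548 bp 9.58 kb downstream (85485579 to 85488126). Junb, a partner of c-Fos in AP-1, had 1 peak of 2208 bp 7.08 kb upstream (chromosome 8, 84984720 to 84986927), which was nearer to Hook2, a gene of a microtubule-binding adaptor. Jun, another partner, had both of its intergenic peaks downstream, at 25.7 and 47.6 kb. Fos thus had peaks on both sides, Junb only upstream and Jun only downstream.

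Egr2, a zinc finger factor induced by firing, had 2 peaks, 47.0 and 51.3 kb upstream. Atf3 also had a pair upstream, at 40.8 and 50.1 kb, the nearer of which holds the D730003I15Rik start printed above. Nr4a2, an orphan nuclear receptor, had 1 peak 14.9 kb upstream, and Ier5, an immediate early gene, 1 peak 45.2 kb downstream. Fosb, Npas4 and Nr4a1, all induced early, had no c-Fos peak of any class within 100 kb. Their nearest intergenic peak of the set lay 623.4, 819.6 and 1538 kb away.

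Among the effector genes, whose products are secreted factors, synaptic proteins and signalling enzymes, 15 of 43 had an intergenic peak (34.9%, interval 21.0 to 50.9), at 3.86 peaks per Mb. Bdnf, the gene of brain-derived neurotrophic factor, had peaks of 1308 and 2535 bp at 35.7 and 55.6 kb upstream, beside a further peak at its start. Scg2, the gene of secretogranin II, also had a further peak at its start. Both of its intergenic peaks lay downstream, one of 2233 bp at 2.16 kb and one of 3281 bp at 98.4 kb. Arc, a regulator of AMPA receptor endocytosis, had a peak of 3108 bp at 75.0 kb on the side of lower coordinates. On the other side it had one of 1015 bp at 15.0 kb, and both were nearer to another gene (Adgrb1 and Jrk). A further c-Fos peak, of the class inside protein-coding genes, lay closer, 1.49 kb from an end of Arc. Ccn1, a gene of a secreted matrix protein, had a peak of 3018 bp only 2.66 kb upstream of its start (chromosome 3, 145651141 to 145654158).

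Regulators of G protein signalling differed in number. Rgs4 had 4 intergenic peaks, 11.4 kb downstream and 17.1, 83.6 and 92.9 kb upstream, and Rgs2 had 1, at 81.3 kb downstream, beside a peak at its start. Nptx2, which encodes a secreted pentraxin that gathers AMPA receptors, had 3, at 2.44, 37.5 and 90.4 kb, whereas its relative Nptx1 had 1 at 22.4 kb. Rasgrp1, an activator of Ras, and Pcdh8, a protocadherin, each had 1 peak upstream, at 47.4 and 53.7 kb. Kcnk1, a two-pore potassium channel gene, had 1 at 34.0 kb upstream and Lonrf3 1 at 23.1 kb downstream. The last 3 were Vgf, a neuropeptide precursor gene (69.5 kb), Baz1a, a chromatin remodelling subunit gene (57.8 kb), and Crh, the gene of corticotropin-releasing hormone (63.3 kb). In all, 23 of the 34 peaks had the activity-induced gene as their nearest gene.

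**Figure D2:**
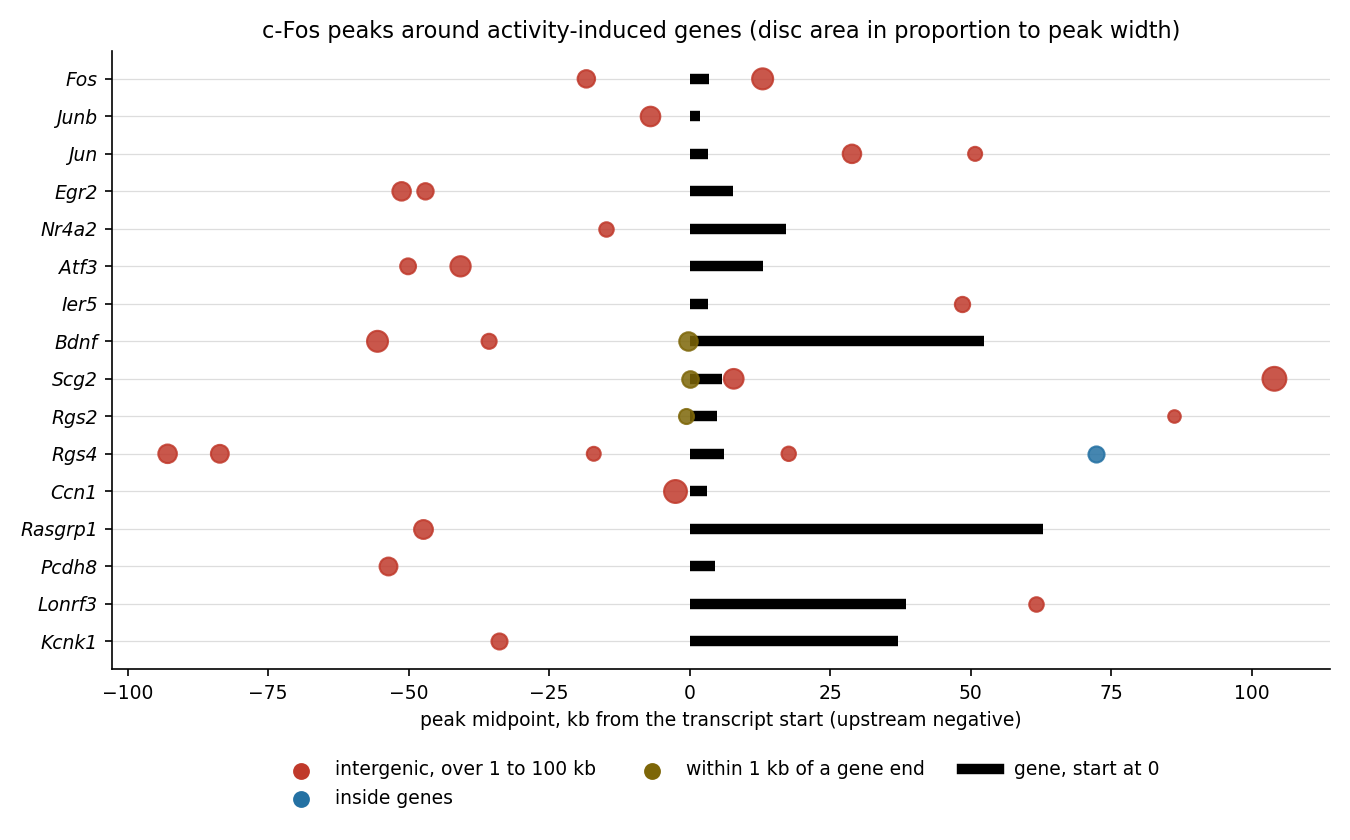
c-Fos peaks around the 16 activity-induced genes that have an intergenic peak and a known strand. The x axis is the distance of the peak midpoint from the transcript start in kb (upstream negative), black bars are genes, disc area is in proportion to peak width and colour gives the class of the peak. Fos has red discs on both sides, Egr2 and Atf3 have pairs upstream, and Rgs4 has 3 red discs upstream and 1 downstream, with a blue one farther out.

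The intergenic peaks by activity-induced genes had a larger median width than the rest. Their median was 1616 bp (n = 34 peaks) and that of the other 804 was 1315.5 bp. Of the 34, 10 (29.4%, exact 95% interval 15.1 to 47.5) were 2 kb or wider, namely 1 each at Fos, Junb, Atf3, Arc, Bdnf, Nptx1, Ccn1 and Rasgrp1 and 2 at Scg2. Of the others, 101 were (12.6%, interval 10.4 to 15.1). The intervals meet at their edges, the comparison was made after the widths were seen, and peaks of 1 list are not replicates, so no test was made. Larger medians were found by interneuron markers (1712 bp, 6 peaks) and by markers of dentate gyrus and CA3 (1692 bp, 5 peaks). Another peak within 12500 bp was found for 7 of the 34 (20.6%, interval 8.70 to 37.9). For the others the share was 11.1% (interval 8.99 to 13.4), which lies inside the first interval.

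**Figure D3:**
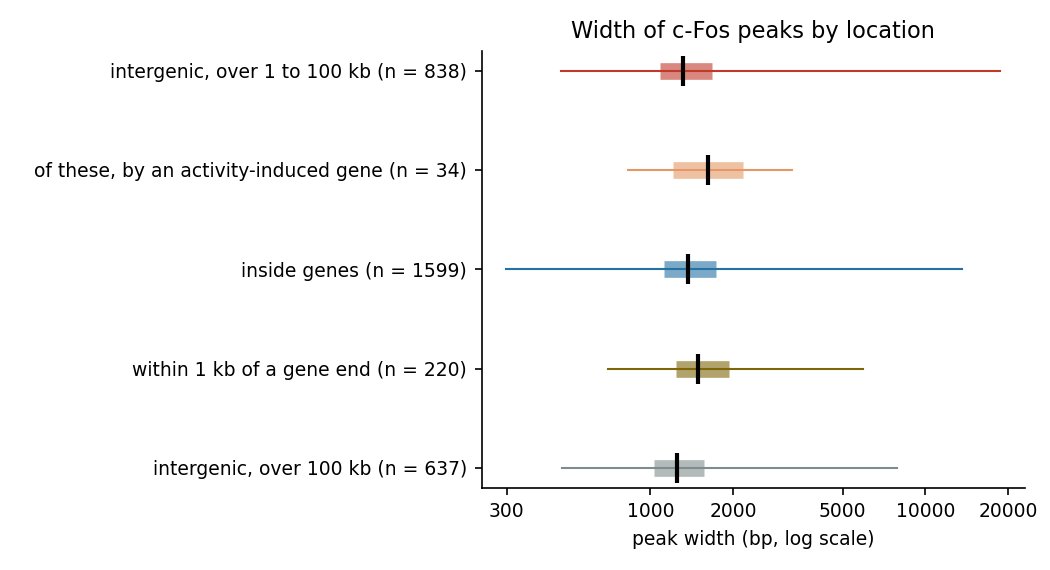
Width of c-Fos peaks in bp (x axis, log scale) by location. Black ticks are medians, boxes run from the lower to the upper quartile and lines from the narrowest to the widest peak. The median is 1318.5 bp for the intergenic peaks, 1616 bp for the 34 of them by an activity-induced gene, and between 1244 and 1494 bp for the other locations.

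For the other lists of neuronal genes the density interval includes the 1.06 per Mb of all genes, and for several it also overlaps that of the activity-induced genes; differences between lists were not tested. Of 28 genes of AP-1 partners and related bZIP factors, 3 had one: Bach2, a repressor, with 2 at 20.5 and 39.1 kb upstream, Maf at 35.8 kb, and Batf3 at 67.1 kb upstream. Of 27 CA1 pyramidal neuron markers, 3 had one. These were Neurod6, a transcription factor of pyramidal cells, at 5.34 kb upstream, Mef2c at 72.7 kb downstream and Foxp1 at 94.8 kb upstream. At the glutamatergic synapse 7 of 41 genes (17.1%, exact 95% interval 7.15 to 32.1) had one. Nlgn3, a neuroligin of synaptic adhesion, had it at 11.2 kb, Homer2 at 24.4 kb upstream and Grm7, a metabotropic receptor, at 34.9 kb downstream. Gria2, the AMPA receptor subunit that limits calcium entry, had 2, at 49.9 and 72.8 kb downstream. Dlg1, a scaffold gene, had 1 at 64.4 kb upstream, and Grin2b, an NMDA receptor subunit gene, 1 at 70.7 kb.

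Of 27 genes of inhibitory synapses and GABA receptors, 1 had an intergenic peak, Gphn, the gene of the scaffold gephyrin, at 55.8 kb downstream. Among 31 genes of neuropeptides and secretory granules 4 had one: Sst (somatostatin), with 3 peaks at 4.35, 95.3 and 96.8 kb downstream, Igf1 at 41.4 kb upstream, Cartpt at 68.1 kb downstream and Cpe, a prohormone-processing enzyme gene, at 69.7 kb. Among 39 genes of voltage-gated ion channels 5 had one, of which 3 encode Shaker-type potassium channels. Kcna4 had 3 peaks (66.4 to 88.0 kb), Kcna1 had 2, the nearer of them 3309 bp wide at 40.9 kb, and Kcna2 had 1 at 28.0 kb upstream. The 2 others were the calcium channel subunit genes Cacna2d1 (28.1 kb upstream) and Cacnb2 (69.0 kb upstream). Of 67 genes of synaptic adhesion and axon guidance, 11 had one (16.4%, interval 8.49 to 27.5), at 0.950 peaks per Mb. The nearest were at Nrp2 (7.41 kb), Ntng1 (7.72 kb), Cdh10 (14.1 kb), Adgrl3 (16.1 kb), Epha4 (20.5 kb) and Cntn6 (27.6 kb), all downstream.

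Markers of other cell types bear on what the sorted nuclei held, although a peak near a marker gives no level of its RNA. Interneuron markers had an intergenic peak at 8 of 26 (30.8%, exact 95% interval 14.3 to 51.8), against 7.86% of all protein-coding genes. Their density was 1.95 peaks per Mb (exact Poisson interval 0.715 to 4.24), and this interval includes the 1.06 per Mb of all genes. The 8 genes shared 6 peaks, because Dlx1 and Dlx2 had the same one, as did Dlx5 and Dlx6. The nearest were at Sp9 (2.28 kb), Dlx6 (2.56 kb) and Dlx2 (3.49 kb), homeobox or zinc finger genes of interneuron development, and these 3 peaks were 2022 to 2613 bp wide. Gad2, the gene of an enzyme that makes GABA, had its peak 30.5 kb downstream. Neighbouring hippocampal fields, dentate gyrus and CA3, had 3 of 21 markers with one, at Ociad2 (5.53 kb), Plekha2 (10.5 kb) and Rnf182 (13.6 kb). That share of 14.3% (interval 3.05 to 36.3) has the 7.86% of all genes inside its interval.

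Glial and vascular markers had shares of 5.56% to 16.7%, on both sides of the 7.86% of all protein-coding genes. Astrocyte markers had 2 of 18, Sox9 at 1.09 kb and Agt at 49.0 kb. Oligodendrocyte lineage markers had 3 of 18, Opalin at 65.9 kb, Mbp at 84.15 kb and Bcas1 at 96.2 kb, and microglia markers had 1 of 18, the chemokine receptor gene Cx3cr1 at 37.2 kb. Vascular markers had 2 of 19, Rgs5 at 34.2 kb and Abcb1a at 92.5 kb, and both peaks counted for Rgs5 were also counted for its neighbour Rgs4. No oligodendrocyte, microglia or vascular marker was the nearest gene of an intergenic peak, and of the astrocyte markers only Sox9 was. Of all protein-coding genes 3.30% (711 of 21523) were, so lists of 18 or 19 genes are too short for an absence to be read. Housekeeping genes had 3 of 32, namely Vcp (33.0 kb), Ywhaz (34.4 kb) and Psma1 (83.1 kb), and genes of other organs 1 of 34, Tnnt2 of heart muscle at 94.4 kb. Whether any of these peaks came from nuclei of another cell type was not tested.

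**Figure D4:**
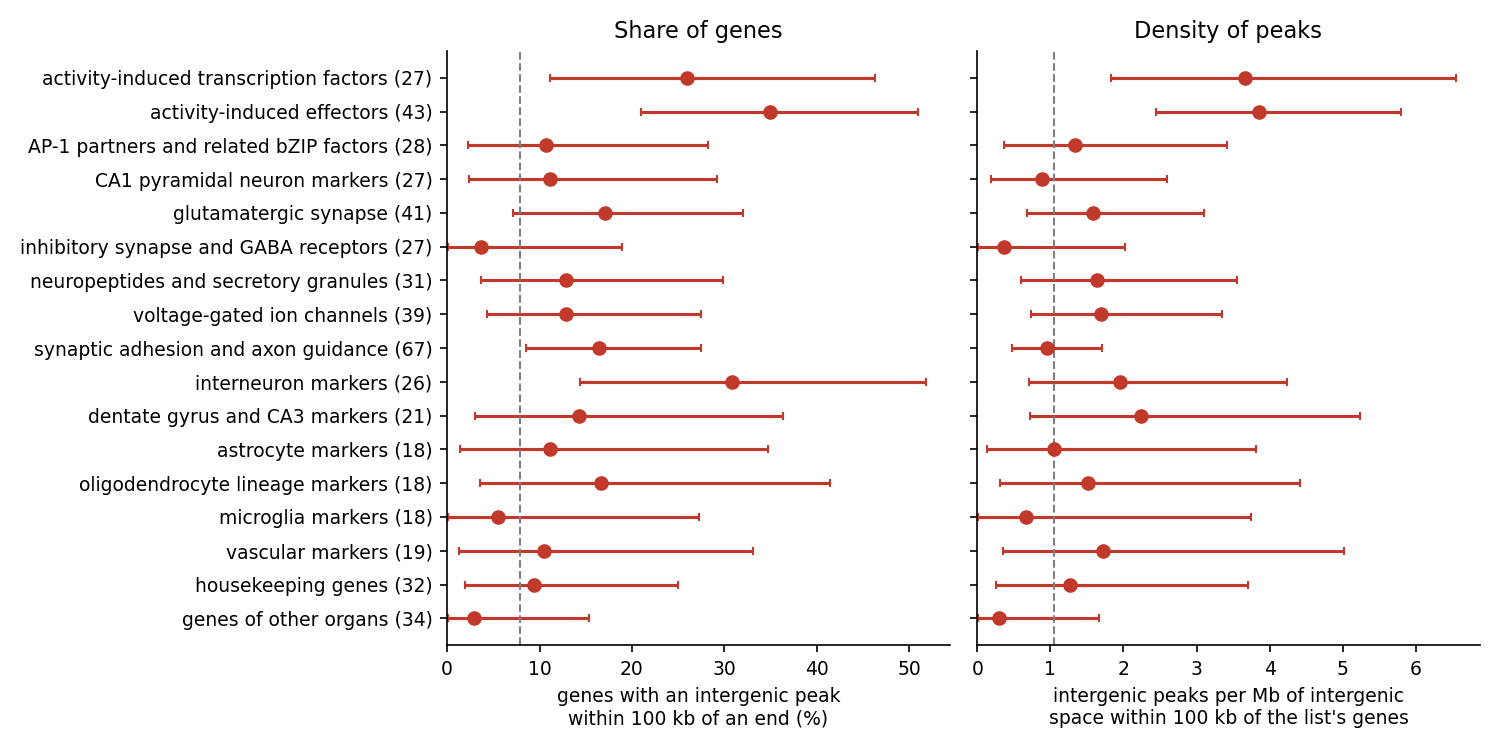
Share of genes on each list with an intergenic c-Fos peak within 100 kb (left, in percent) and density of such peaks per Mb of covered sequence around the genes (right), with exact 95% intervals and the number of genes in brackets. Dashed lines are all protein-coding genes, 7.86% and 1.06 per Mb. The 2 activity-induced lists lie at 25.9% and 34.9% and at 3.66 and 3.86 per Mb, and theirs are the 2 density intervals that lie wholly above the dashed line. The share intervals of interneuron markers and of synaptic adhesion and axon guidance genes also lie above 7.86%.

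Most stretches between genes had at most 1 intergenic peak, and a few held many. Of 16473 stretches with sequence covered by the rule, 685 (4.16%) had one or more: 569 had 1, 93 had 2 and 23 had 3 or more, which together held 81 peaks. Of all 838 peaks, 96 (11.5%, exact 95% interval 9.38 to 13.8) had another c-Fos peak within 12500 bp, and for 82 of the 96 the closest one was also an intergenic peak of the same set. The median distance to the next c-Fos peak was 126.1 kb.

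The stretch with most was that of 594.9 kb between Fbxw7, a ubiquitin ligase subunit gene, and Gatb, a mitochondrial translation gene, on chromosome 3. It held 7 such peaks, 1020 to 3651 bp wide, 2 of them on the Fbxw7 side (7.06 and 41.2 kb) and 5 on the Gatb side (19.6 to 95.2 kb). Another 6 peaks lay in its middle, over 100 kb from both genes, and 1 at the end of Gatb. On the side of Gatb, Gm31419 held 2 of these peaks and Gm3740 another 2. On chromosome 10, 6 peaks spread over 60.7 kb lay downstream of Hivep2, the gene of a zinc finger transcription factor, at 3.43, 28.7, 41.0, 42.9, 58.1 and 64.2 kb from it. The fifth of these was 4402 bp wide, and the remaining part of the 251.2 kb up to Adgrg6, an adhesion receptor gene, had none. All 6 lay in the part nearer to Hivep2.

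Between Epha6, an ephrin receptor gene, and Nsun3, a tRNA methyltransferase gene of mitochondria, on chromosome 16, 5 peaks of 1593 to 2395 bp lay 2.52 to 95.8 kb from Nsun3, and 4 of them fell between 79.0 and 95.8 kb. None lay within 100 kb of Epha6, at the other end of a stretch of 2122 kb. Between Lrpap1, a receptor chaperone gene, and Adra2c, an adrenergic receptor gene, 4 peaks lay 24.1 to 65.2 kb from Lrpap1. A further 4 each lay between Atp1b1, a sodium pump subunit gene, and Dpt (with 3 peaks over 100 kb from both) and between Ccer1 and Atp2b1, a calcium pump gene (with 20). With 3 each followed the stretches Susd4 to Tlr5, Ccdc121 to Dnah14, Tmeff2 to Cavin2, Lbh to Lclat1, Rgs4 to Ccdc190 and Otos to Gpc1. Counted per gene on both sides, Hivep2 had 6 intergenic peaks within 100 kb, Gatb and Nsun3 5, and Cavin2, Dok7, Gzf1, Hlx, Lrpap1, Napb, Nxt1, Rgs4 and Susd4 4 each. Gzf1, Napb and Nxt1 are neighbours and so counted the same peaks, as did Dok7 and Lrpap1.

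**Figure D5:**
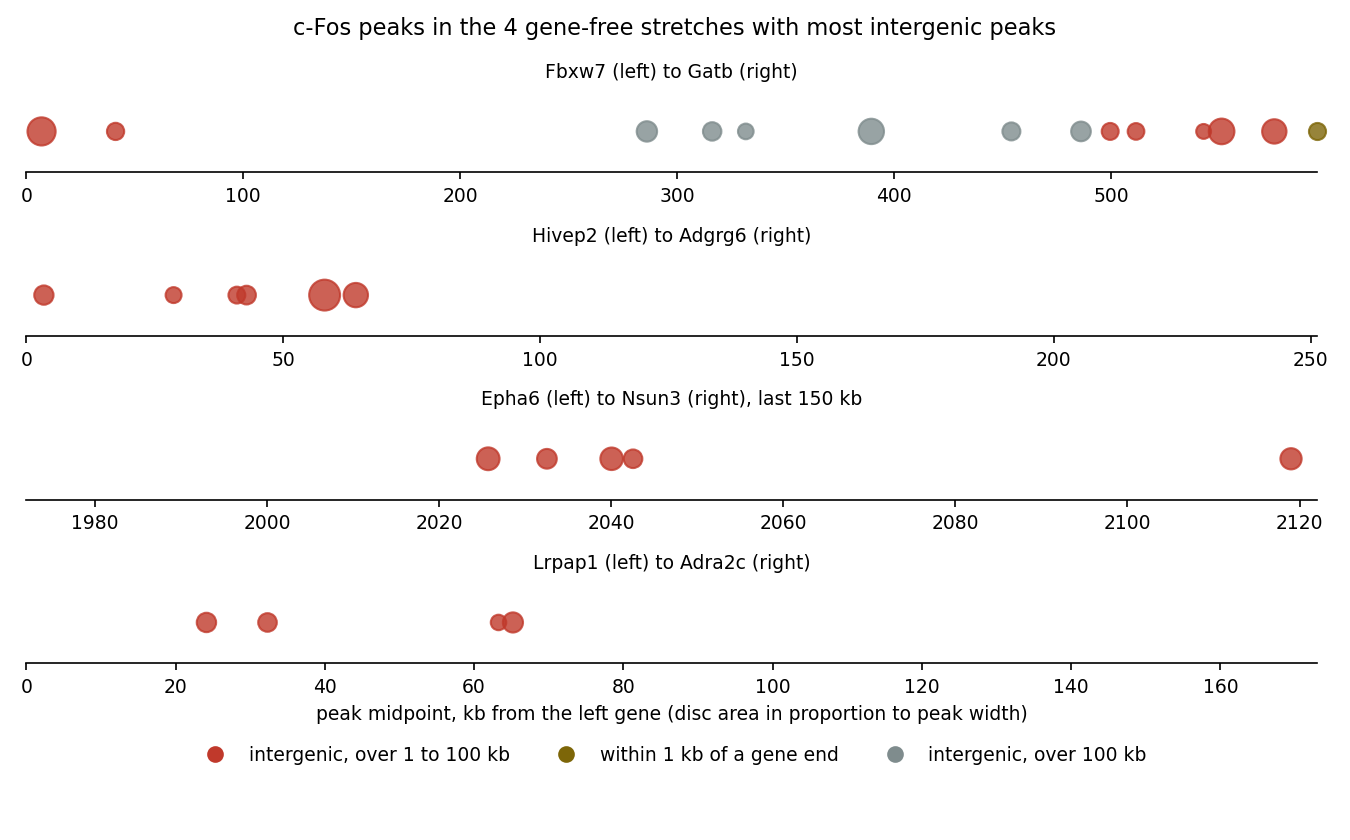
c-Fos peaks in the 4 stretches between protein-coding genes that held most intergenic peaks. The x axis of each row is the distance of the peak midpoint from the left gene in kb, disc area is in proportion to peak width and colour gives the class of the peak. In the top row 7 red discs flank 6 grey ones, and in the second row all 6 lie in the part next to Hivep2.

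By width, the intergenic peaks lay between the other locations. Their median of 1318.5 bp (quartiles 1085 and 1672.75 bp, range 473 to 18691 bp) compared with 1244 bp for peaks over 100 kb from a gene, 1366 bp inside genes and 1494 bp at gene ends. Of the 838, 111 (13.2%, exact 95% interval 11.0 to 15.7) were 2 kb or wider. Along the distance from the gene, the median fell from 1407.5 bp between 1 and 5 kb to 1272 bp between 50 and 100 kb. The widest had Mid1, a ubiquitin ligase gene on the X chromosome, as nearest gene (18691 bp), followed by the predicted genes Gm45988 (11904 bp), Gm20767 (6609 bp) and Gm38821 (6403 bp). Then came Igf2bp3, an RNA-binding protein gene (5650 bp), B020031M17Rik (5501 bp), the homeobox gene Meis1 (4569 bp), Hivep2 (4402 bp), the vesicle transport gene Trappc6b (4363 bp) and the homeobox gene Nkx2-3 (4241 bp). The peaks by Meis1 and Nkx2-3 lay inside lncRNA genes and covered the start windows of 8430419K02Rik and Gm20467.

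The limits of distance cut through neighbouring values. Just inside the lower limit were the peaks by Ccdc185, H2az1 and Ldhd, at 1021, 1023 and 1042 bp, and just outside it those by Serpinb7, Colec10 and Copb1, at 869, 890.5 and 978 bp. Just inside the upper limit were those by Mkln1, Pclo and Slc30a5, at 99.13, 99.35 and 99.9 kb, and just outside it those by Cbln4, Plppr4 and Sorcs1, at 100.13, 100.74 and 101.73 kb. The 20 intergenic peaks closest to a gene lay by genes of mixed kinds. Among them were the developmental regulators Sox9 (1.09 kb), Foxa1 (1.11 kb), Hlx (1.20 kb) and Prdm12 (1.38 kb). How often such regulators are nearest over all intergenic peaks was not counted. The 20 also had Spry2, an inhibitor of growth factor signalling (1.14 kb), and Ank2, a membrane scaffold gene (1.13 kb). Stmn4, a tubulin-binding protein gene (1.24 kb), and Hcrtr1, an orexin receptor gene (1.41 kb), were others.

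Across chromosomes, the density of intergenic peaks ran from 0.682 per Mb on chromosome 7 (38 peaks, exact Poisson 95% interval 0.483 to 0.936) to 1.70 on chromosome 1 (92 peaks, 1.37 to 2.09) among autosomes. Chromosome 1 holds several of the loci above, including Scg2, Atf3, Rgs2, Rgs4, Ier5, Hlx and Cavin2. The X chromosome had 7 intergenic peaks, or 0.108 per Mb (0.0434 to 0.222), against 1.14 per Mb (1.06 to 1.22) on the 19 autosomes together. The X chromosome had few c-Fos peaks of any location, 21 in all, and the 7 are 33.3% of them, against 25.4% over all chromosomes. Those 7 had Dynlt3, Lonrf3, Cypt15, Vma21, Nlgn3, Radx and Mid1 as nearest genes, of which Lonrf3 is an activity-induced gene and Nlgn3 a synaptic one.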

How the data were processed

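CUT&RUN for c-Fos and IgG was run on sorted CaMK2a-lineage CA1 nuclei after KA or PBS. The labels give 4 groups with 3 replicates in each. The submitters' processing notes name SEACR 1.1, bedtools 2.27.1, Trimmomatic 0.36 and Bowtie2 2.2.9 and the builds mm10 and sacCer3. The sources used here do not give their roles and settings or how replicates were combined. The deposited file holds the chromosome, start and end of 3295 peaks, with no count, score or signal, so read depth is unknown and peaks under the authors' unknown threshold are missing. It is attached to 1 KA c-Fos sample and was treated as a list of that group. On 20 chromosomes 3294 peaks were used, with 1-based mm10 positions.

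Genes came from RefSeq (GRCm38.p6); genes starting below 3000000 were left out. Strand was known for 17274 of 21523 protein-coding genes. Distances ran from peak midpoints, and densities divide peaks by the Mb that the same rule covers. Intervals at 95% are exact (Clopper-Pearson for shares, Poisson for densities). All results are descriptions without a test, since the list has no value per library. Of 520 entries on 17 gene lists, 519 matched. The members and lists were chosen with earlier results of these data known. The lncRNA start distances, start windows and widths by activity-induced genes were chosen after the data were seen.

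Genes were named by a rule: every activity-induced gene with an intergenic peak within 100 kb (and Fos, Fosb, Junb, Npas4, Arc, Bdnf, Scg2 and Nr4a1 always), up to 6 with the nearest peaks from each other list, flanking genes of the 12 fullest stretches, the 10 genes with most peaks, the nearest genes of the 10 widest, the 20 closest and those at each limit, and up to 10 non-coding genes. Some are not named. The lncRNA genes of printed windows, and the nearest genes on the X chromosome, were named after their values were seen. Distances were tested on simulated data, where 1500 of 1500 peaks in 5 sets received the class they were placed in. Python 3.11.15, numpy 2.4.6, pandas 2.3.3, scipy 1.17.1 and matplotlib 3.10.9 were used.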

Additional observations from a re-analysis of the deposited data

How the results depend on the processing

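No paired analysis was possible because 1 list of positions carries nothing for a single replicate, and for that reason no replicate could be left out. The alternatives that need the peak sequence (an AP-1 motif in the peak) were not run. Of 38 alternatives to the summary values 25 stayed within the bound set for them. That bound was the counting interval, except for the activity-induced genes, where it was a fixed fold range around the number of genes. The share of peaks that were intergenic, 25.4%, became 31.6% with genes of all types, 21.7% with a lower limit of 5 kb and 18.3% with an upper limit of 50 kb. Their median distance of 25.6 kb became 17.4 kb with genes of all types and 23.3 kb among peaks at least as wide as the median. The share with another peak within 12500 bp, 11.5%, became 6.32% within 5 kb, 21.4% within 25 kb and 9.18% with peaks within 500 bp merged. With the wider peaks alone the densities by distance were 0.617, 0.428, 0.486, 0.497 and 0.512 per Mb from the nearest to the farthest bin, lower by construction. Of the activity-induced genes, 21.4% to 24.3% had an intergenic peak when only the nearest gene, 50 kb or the wider peaks counted, while all genes had 3.30% to 4.39%. The alternatives without peaks over 5 kb, for non-coding genes and for the motif were chosen after seeing the data. Depth cannot be read from the list, so a gene without a peak is one where none was listed.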
